A study of Mus musculus with 8 samples.

Results

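The constitutive proteasome genes of a mouse fibroblastic reticular cell (FRC) line were described across 4 culture conditions. They were chosen by symbol: the 20S α subunits (Psma), the 20S β subunits (Psmb), the 19S ATPases (Psmc), the 19S non-ATPase subunits and base chaperones (Psmd), the activators Psme1 to Psme4, the inhibitor Psmf1 and the 20S assembly chaperones Psmg1 to Psmg4. The inducible subunits Psmb8, Psmb9 and Psmb10 were left out. Of the 55367 genes in the count table, 45 matched, and 43 of these had at least 10 counts in at least 3 of the 8 libraries. The 43 genes comprised 7 α subunits, 7 β subunits, 6 ATPases, 11 non-ATPase subunits, 3 base chaperones, 5 activators or inhibitors and 4 chaperones of the 20S core. Psma8, the testis form of an α subunit, had 0 counts in each library, which allows up to 0.211 to 0.354 CPM (reads counted on a gene per 1000000 counted reads) by counting error alone, with 3 counts as the floor. Psmb11, the thymus form of a β subunit, had 0 or 1 count in each library.

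The proteasome degrades proteins that carry ubiquitin. Its 20S core is a barrel of α and β rings with the proteolytic sites on the subunits encoded by Psmb5, Psmb6 and Psmb7, and the 19S particle recognizes, unfolds and feeds in the substrate. Other caps can take the place of the 19S particle. PA28αβ, encoded by Psme1 and Psme2, is induced by interferon γ and is known for its part in making peptides for MHC class I, whereas PA28γ (Psme3) is a nuclear cap and PA200 (Psme4) a large single-chain cap. FRCs are the stromal cells that form the conduit scaffold of the lymph node and present antigen to T cells.

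All cells came from 1 FRC line, made from the lymph nodes of mice with the p53 ER/ER allele on a C57BL/6 background, so every condition shares that allele and that line. Cells were kept for 4 days in RPMI that B16.F10 melanoma cells had conditioned (TCM), in RPMI that FRCs had conditioned (CCM), in RPMI with 15 mmol/L lactic acid (LA), or in RPMI with the same amount of water (vehicle), each with 2% FBS. Poly(A) RNA was sequenced in 2 libraries per condition. The study describes these as biological replicates, and no label ties a library to an animal or culture of its own, so P values measure only the spread between these libraries.

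Reads counted on genes ranged from 8232889 to 14107964 per library. Of the FRC markers, Pdpn (116 to 175 CPM before scaling), Vcam1 (138 to 201), Pdgfra, Pdgfrb and Col1a1 were present in each library, and Col1a2 had 57 to 178 counts, whereas Ccl19 and Ccl21a were at 0 or 1 count, Thy1 did not exceed 16 and Il7 did not exceed 26 counts. Ptprc and Epcam were at 0 in each library, Pecam1 and Cdh5 did not exceed 9 counts, the melanoma genes Mlana, Tyr and Dct did not exceed 1 count, and Pmel had 10 to 21 counts with no excess in TCM. The 43 members held 0.470% to 0.583% of the counts. In bulk RNA, more cells expressing a gene and more RNA per cell cannot be told apart.

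Short stretches around a motif match are shown first. Interferon and stress factors are known to act on proteasome genes through elements of this kind. A link between the motifs and the calls below was not tested. RefSeq (GRCm38.p6) gave a promoter, from 250 bases before to 50 bases after the start, for 36 of the 43 members. The interferon-stimulated response element core GAAANNGAA, searched on both strands, lay in the promoters of 7 members (19.4%) and of 8.36% of the 9385 tested genes with a promoter. Of the 7, only Psme1 was called in TCM versus CCM, and Psme2, the other member called, had no match. The capitals mark the match, written on the strand of the gene, so that a match on the other strand reads as its reverse complement.
Psme1, chr14:55578494-55578522, plus strand: gagctgtgctTTCGCTTTCccttcccgct
Psmb3, chr11:97703262-97703290, plus strand: acagtgacttTTCACTTTCcgctttccat
Psmb4, chr3:94886943-94886971, minus strand: aaaggaccacTTCCGTTTCcggtgacgct
Psmc2, chr5:21786729-21786757, plus strand: gtggggaagaGAAAGGGAAgacaccagcg
Psmd4, chr3:95042675-95042703, minus strand: taaccaacctTTCCATTTCtgtggcgcct
Psmd9, chr5:123228021-123228049, plus strand: gggacagaatGAAAAAGAAaggaatgaac
Psmg4, chr13:34162969-34162997, plus strand: gcgcgcatctGAAAGTGAAagagcgttcc

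The match in Psme1 began 10 bases after its RefSeq start. Psme2 had a match to none of the 4 motifs searched, and the 238 bases before its first exon are given for comparison. The γ-activated site TTCNNNGAA lay in the promoters of 2 members (5.56%), Psmd2 and Psmg1, against 8.08% of tested genes, and CCAAT in 12 members (33.3%) against 43.7%. A match is a description of letters and not a bound site.
Psme2, chr14:55591114-55591351, minus strand: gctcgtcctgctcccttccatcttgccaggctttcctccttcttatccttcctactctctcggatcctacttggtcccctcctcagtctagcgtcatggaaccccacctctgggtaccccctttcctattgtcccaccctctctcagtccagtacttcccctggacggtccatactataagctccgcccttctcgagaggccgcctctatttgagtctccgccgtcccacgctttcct

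The antioxidant response element core TGACNNNGC, the kind of element through which Nrf1 (Nfe2l1) restores proteasome genes after inhibition, lay in the promoters of 6 members (16.7%) against 17% of tested genes. The members were Psmb5, Psmb6, Psmc6, Psmd12, Psmd9 and Psme4. The matches of the catalytic subunits Psmb5 and Psmb6 are shown with the core in capitals.
Psmb5, chr14:54618024-54618052, minus strand: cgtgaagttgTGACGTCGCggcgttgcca
Psmb6, chr11:70525338-70525366, plus strand: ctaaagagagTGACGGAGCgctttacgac

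Levels of different members are compared as CPM per kilobase of transcript. β subunits had the highest median level, 147.7 CPM per kb, led by Psmb4 at 229.3. α subunits ranged from 30.51 (Psma3) to 175 (Psma7) with a median of 82.65, the ATPases from 66.29 (Psmc4) to 135 (Psmc3) with a median of 87.52, and the 19S non-ATPase subunits from 43.22 (Psmd11) to 136.4 (Psmd2) with a median of 85.17. The assembly factors were lower on this scale. The base chaperones, which help the ATPase ring assemble and then leave, had a median of 13.16 CPM per kb and the 20S chaperones one of 25.34. Among the caps Psme2 stood at 86.61, Psme1 at 66.02, Psme3 at 45.39 and Psme4 at 23.01 CPM per kb, and the inhibitor Psmf1 at 9.867, over all conditions.

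The 2 TCM libraries differed from each other more than the libraries of any other pair, and this bears on each result with TCM. Members were higher in TCM replicate 1 than in replicate 2 in 39 of 43 cases, with a median log2 ratio of 0.37, where the median of all 12137 tested genes was 0.00. The difference reached a median of 0.48 in the 20S subunits and 0.33 in the 19S subunits. In the other conditions the members' median log2 ratio between the libraries was 0.04 (vehicle), −0.10 (CCM) and 0.02 (LA). Counts of the members differed between the TCM libraries with a chi-square of 43.8 per gene, against 2.47 to 5.94 in the other pairs. Over all tested genes it was 19.8 per gene in the TCM pair and 3.28 to 7.32 in the others, so the wide spread in TCM was not limited to the members. The chi-square grows with the counts of a gene, so its values for the members and for all genes are not like for like.

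The summed CPM of the 7 β subunits was 1427 in TCM replicate 1 and 979.3 in TCM replicate 2, and ranged from 996.1 to 1100 in the other 6 libraries. For the 7 α subunits it was 1002 and 744.4, with 761.1 to 835.5 in the others. TCM replicate 1 thus lay above and TCM replicate 2 below all other libraries in both rings. The 11 non-ATPase subunits were closer, at 1982 and 1741 CPM against 1787 to 1898. TCM replicate 1 held the highest value of 34 members, 13 of the 14 subunits of the 20S core and 12 of the 17 of the 19S particle among them, where it held the highest value of 24.5% of all tested genes. TCM replicate 2 held the lowest value of 21 members and the highest of 0, where it held the lowest value of 18% and the highest of 16.6% of all tested genes.

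**Figure D1:**
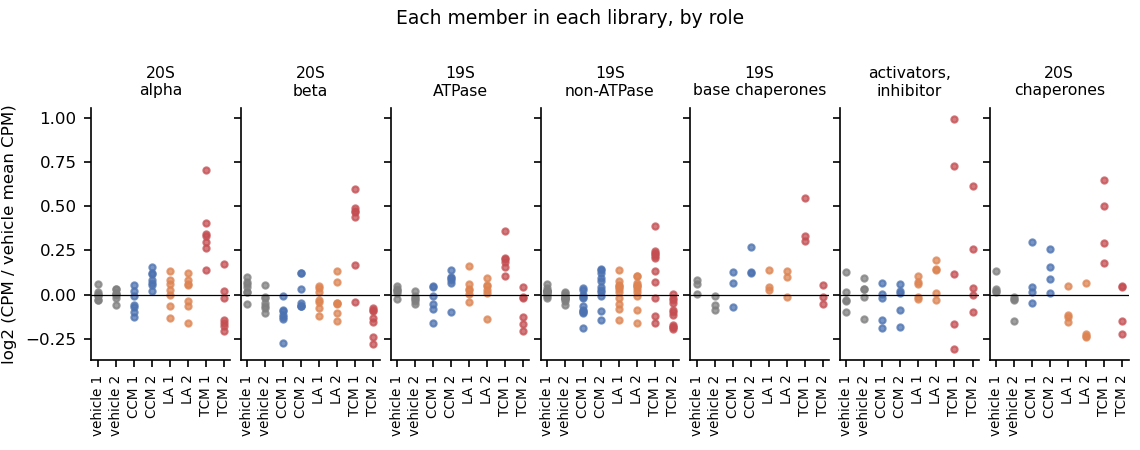
Each point is 1 member in 1 library, as the log2 ratio of its CPM to its mean CPM in the vehicle libraries (vertical axis), by role and library (horizontal axis, coloured by condition). Most 20S subunits sit high in TCM replicate 1 and low in TCM replicate 2, whereas 2 of the activators (Psme1 and Psme2) are above 0 in both.

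The ratio between the TCM libraries followed transcript length. Across the 43 members Spearman's rho of the log2 ratio with length was −0.53, and across 11984 tested genes with a length it was −0.61, both across genes of the same pair of libraries and given as a description. The 15 members with transcripts under 1200 bases had a median log2 ratio of 0.47, the 16 of 1200 to 2000 bases 0.35, and the 12 longer ones 0.23. For all tested genes of these lengths the medians were 0.40, 0.22 and −0.08. In the vehicle and LA pairs rho over all tested genes was −0.22 and −0.24, and in the CCM pair it was 0.33. The part of transcript length in the results below was examined only by taking each library's trend over length out of the fit, a setting chosen after seeing the data.

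**Figure D2:**
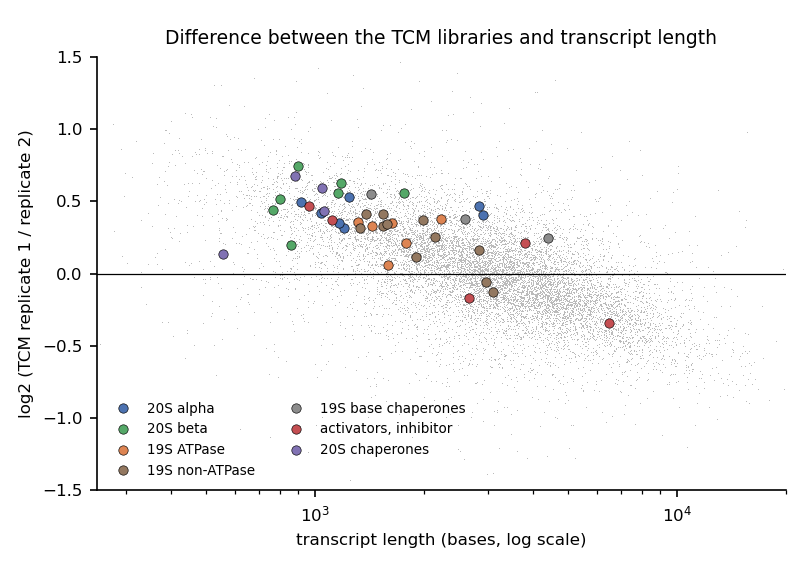
Each point is a gene, with the length of its transcript in bases on a log scale (horizontal axis) and the log2 ratio of its CPM in TCM replicate 1 to replicate 2 (vertical axis). Grey points are other tested genes and coloured points the 43 members; 11945 genes are drawn and 39 lie outside the axes. Over all tested genes short transcripts lie mostly above 0 and long ones mostly below. Of the 43 members 39 lie above 0 and 4, Psme4 among them, below. The 12 members of 2000 bases or more have a median of 0.23.

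The comparison of TCM with CCM sets medium conditioned by B16.F10 cells against medium conditioned by FRCs. TCM is not CCM with tumor factors added, so the products of both kinds of cell differ between the media. Genes were called at an adjusted P under 0.05 in edgeR's quasi-likelihood test and a log2 FC of more than 0.39 in size, the value given in the study's methods. Psme1 and Psme2, the subunits of PA28αβ, rose in TCM, and no other member was called in either direction. This made 2 of 43 members higher, where 8.83% of all tested genes were called higher, and 0 of 43 lower, where 10.2% of all tested genes were called lower. In either direction 19.1% of all genes were called, and 21.3% had an adjusted P under 0.05, a threshold that the same 2 members passed. DESeq2 also called 2 members higher and 0 lower, and 4 members had an unadjusted P under 0.05 in edgeR.

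Psme1, the α subunit of PA28, stood at 61.2 and 60.0 CPM in the vehicle libraries, 59.9 and 63.3 in CCM, 63.1 and 66.6 in LA, and 120.3 and 92.9 in TCM. Both TCM libraries were above all 6 others, which lay between 59.9 and 66.6 CPM. The log2 FC in TCM versus CCM was 0.79 ± 0.12 (SE), with a 95% interval of 0.52 to 1.06 and an adjusted P of 0.00103 in edgeR. Without TCM replicate 1 it was 0.59 and without TCM replicate 2 it was 0.97. With only the CCM and TCM libraries in the fit it was 0.80 (adjusted P = 0.0141 in edgeR). Without scaling factors it was 0.65 (adjusted P = 0.00285 in edgeR). Psme1 lies at chr14:55578123-55581529 on the plus strand (GENCODE M21, GRCm38). It shares 14 bases at its end with Emc9 on the other strand, and whether counting used strand is not given. Emc9 had 38 to 87 counts per library, also rose (log2 FC 1.31, adjusted P = 0.00199 in edgeR), and had means of 3.46 CPM in CCM and 8.58 in TCM.

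Psme2, the β subunit of PA28, stood at 83.7 and 69.5 CPM in the vehicle libraries, 67.3 and 77.6 in CCM, 75.3 and 74.9 in LA, and 126.8 and 91.6 in TCM. Both TCM libraries were again above the other 6, with the library of TCM replicate 2 nearer to them. The log2 FC in TCM versus CCM was 0.59 ± 0.15 (SE), with a 95% interval of 0.26 to 0.93 and an adjusted P of 0.0173 in edgeR. The call was lost without TCM replicate 1 (log2 FC 0.34, adjusted P = 0.0571), without CCM replicate 1 (0.49, adjusted P = 0.151), with only the CCM and TCM libraries in the fit (0.60, adjusted P = 0.0617) and without scaling factors (0.45, adjusted P = 0.0501). With the trend over transcript length taken out, the log2 FC was 0.49 (adjusted P = 0.000632), and that of Psme1 0.71 (adjusted P = 1.24e-05). Psme2 lies at chr14:55587441-55591113 on the minus strand, 5911 bases beyond the end of Psme1 and facing it. Its near copy Psme2b on chromosome 11 had 21 to 48 counts per library and a log2 FC of 0.72 (adjusted P = 0.0446 in edgeR), and reads that the copies share could not be told apart.

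Set against the summed α subunits of the same library, the PA28αβ genes were alike in both TCM libraries. Psme1 amounted to 12% and 12.5% of the α sum in TCM and to 7.58% to 8.45% in the other 6 libraries. Psme2 amounted to 12.7% and 12.3% in TCM and to 8.84% to 10.6% in the others. The ratio of the TCM mean to the CCM mean was 1.59 for Psme1 and 1.38 for Psme2. On this scale, which was chosen after seeing the data, neither gene's TCM libraries overlapped with the rest. Both genes already had this pattern in CPM, as did 16.4% of all tested genes, and the share on this scale was not computed. The α sum of TCM replicate 2, 744.4 CPM, was the lowest of the 8 libraries, which raises its ratios. That of TCM replicate 1, 1002 CPM, was the highest, so the division takes out a difference that a gene shares with the α subunits. Likeness of the TCM libraries on this scale was not particular to PA28αβ. Psmb6 was close as well (21.4% and 20.2%), whereas Psmb5 (6.3% and 5.02%) and Psme4 (12.1% and 20.7%) were less so.

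The other caps did not pass the test. Psme3, the nuclear PA28γ, stood at 118.9 and 124.3 CPM in vehicle, 121.9 and 122.2 in CCM, 127.9 and 122.4 in LA, and 108.2 and 121.4 in TCM. Both TCM libraries lay under both CCM libraries, replicate 2 by less than replicate 1, and the log2 FC was −0.09 with a 95% interval of −0.29 to 0.12. Psme4, the PA200 cap, stood at 146.6 and 153.5 CPM in vehicle, 157.3 and 141.3 in CCM, 148.9 and 172.1 in LA, and 121.5 and 153.9 in TCM. Its groups overlapped, with a log2 FC of −0.12 and a 95% interval of −0.39 to 0.16. Psmf1, the inhibitor PI31, stood at 35.1 and 40.1 CPM in vehicle, 34.1 and 33.1 in CCM, 40.5 and 41.6 in LA, and 40.8 and 35.2 in TCM. Both TCM libraries were above CCM and within the range of the vehicle and LA libraries, and the log2 FC was 0.18 (−0.08 to 0.44).

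**Figure D3:**
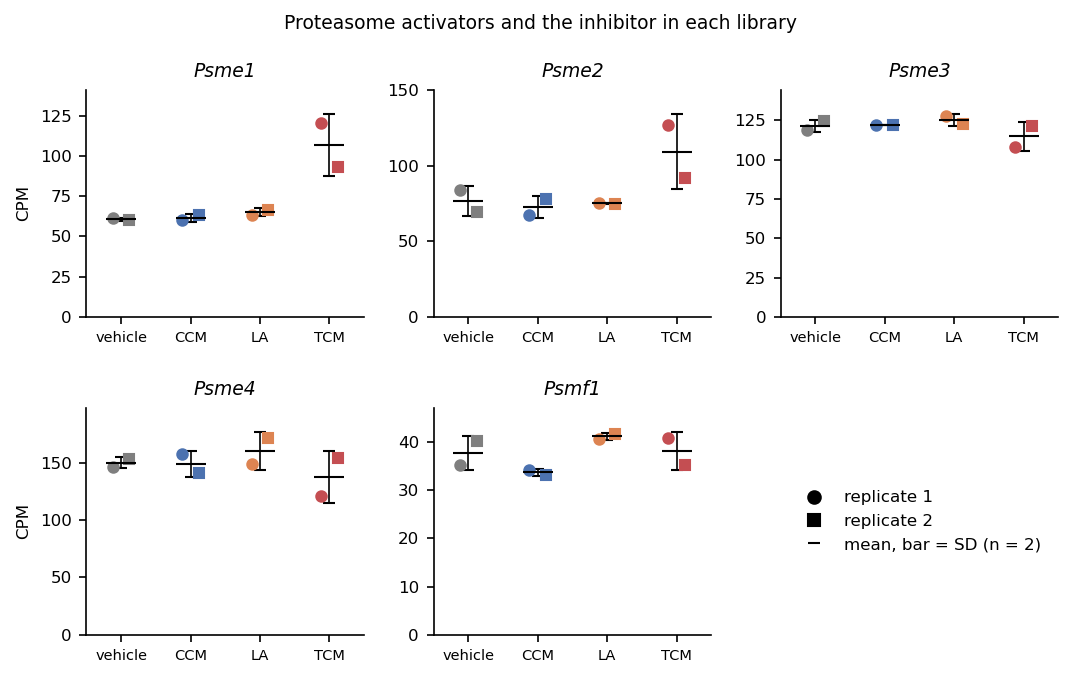
CPM (vertical axis, from 0) of the 4 activators and the inhibitor Psmf1 by condition (horizontal axis), with a circle for replicate 1, a square for replicate 2, and the mean with its SD over the 2 libraries. Psme1 and Psme2 are higher in both TCM libraries than in all 6 others, whereas Psme3 and Psme4 are not.

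The subunits of the 20S core gave no call, and their spread in TCM was wide. Of the 14, 12 had a positive log2 FC, where 50% of all tested genes had one. The median of the 14 was 0.15, where the median of all tested genes was 0.00. Over all 43 members the median was 0.10. That median ranged from −0.06 to 0.22 with 1 library left out, and was 0.04 with the trend over transcript length taken out. In edgeR 1 of the 14 core subunits, Psma5, had an unadjusted P under 0.05. Psmb5, which carries the chymotrypsin-like site, stood at 40.2 and 43.2 CPM in vehicle, 37.9 and 39.9 in CCM, 42.1 and 45.7 in LA, and 63.2 and 37.4 in TCM. The TCM libraries fell on either side of all others, and the log2 FC, the highest of the β subunits, was 0.37 with a 95% interval of −0.05 to 0.79. Psmb6, with the caspase-like site, stood at 163.3 and 153.4 CPM in vehicle, 144.9 and 153.1 in CCM, 164.1 and 166.2 in LA, and 214.5 and 150.1 in TCM. Psmb7, with the trypsin-like site, stood at 165.0 and 161.1 CPM in vehicle, 162.0 and 177.6 in CCM, 167.2 and 158.0 in LA, and 226.5 and 153.7 in TCM. For both, TCM replicate 1 was above all others, and TCM replicate 2 lay within their range for Psmb6 and under it for Psmb7. The log2 FC was 0.29 (−0.02 to 0.60) for Psmb6 and 0.16 (−0.16 to 0.49) for Psmb7.

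Psmb2, a β subunit without a proteolytic site, had the lowest log2 FC of its ring, −0.06 (−0.29 to 0.18). Its CPM was 102.6 and 89.2 in vehicle, 89.8 and 91.8 in CCM, 88.1 and 89.3 in LA, and 93.3 and 81.2 in TCM. In the α ring, which gates the entry to the core, Psma5 had the highest log2 FC, 0.36 (0.04 to 0.68, adjusted P = 0.102 in edgeR). It stood at 71.7 and 72.7 CPM in vehicle, 74.9 and 80.4 in CCM, 75.4 and 76.6 in LA, and 117.8 and 81.5 in TCM, so that TCM replicate 2 was barely above CCM replicate 2. Psma4 had the lowest, −0.04 (−0.29 to 0.21), at 97.7 and 95.5 CPM in vehicle, 98.0 and 97.9 in CCM, 98.4 and 92.4 in LA, and 106.6 and 83.7 in TCM. Without TCM replicate 2 the count of members called higher was 11, of which Psma5, Psmb1, Psmb4, Psmb5, Psmb6 and Psmb7 belong to the core, where 11.9% of all tested genes were called higher. Without TCM replicate 1 it was 1, Psme1, where 9.01% of all tested genes were called higher.

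The 17 subunits of the 19S particle had a median log2 FC of 0.02, with 9 above and 8 below 0. None was called by edgeR, and 1 (Psmd8) had an unadjusted P under 0.05. For 14 of them the 95% interval lay within 0.39 of 0 on either side. These intervals rest on a spread per gene estimated over all 8 libraries, although the TCM pair differed more than the others. They can thus be too narrow here and do not bound the change. Psmc3 had the highest log2 FC of the ATPases, the motor subunits that unfold the substrate, at 0.15 (−0.12 to 0.41), and Psmc5 the lowest at −0.04 (−0.30 to 0.22). Psmc3 stood at 234.8 and 219.3 CPM in vehicle, 202.9 and 212.5 in CCM, 231.2 and 206.7 in LA, and 257.6 and 202.0 in TCM. Psmc5 stood at 125.3 and 122.0 CPM in vehicle, 119.3 and 132.7 in CCM, 120.2 and 124.2 in LA, and 137.6 and 107.3 in TCM. In both genes the TCM libraries bracketed the CCM libraries.

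Among the non-ATPase subunits, Psmd8 of the lid came closest to a call, with a log2 FC of 0.36 ± 0.13 (SE), a 95% interval of 0.09 to 0.64 and an adjusted P of 0.0634 in edgeR. It stood at 138.8 and 128.0 CPM in vehicle, 116.9 and 120.6 in CCM, 120.7 and 119.3 in LA, and 174.4 and 130.6 in TCM. TCM replicate 2 was above both CCM libraries and within the range of the vehicle libraries. Psmd2, the large scaffold subunit of the base, had the lowest log2 FC, −0.09 (−0.29 to 0.11). It stood at 412.8 and 409.0 CPM in vehicle, 392.7 and 408.4 in CCM, 432.9 and 424.5 in LA, and 368.1 and 383.7 in TCM, and was the 1 member whose TCM libraries were both under all 6 others, a pattern that 16.7% of all tested genes had. Both TCM libraries were above all 6 others in 3 members, Psma5, Psme1 and Psme2, against 16.4% of all genes. TCM lay above CCM without overlap in 6 members (27.8% of all genes) and under it in 2 (30.5% of all genes).

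The assembly factors gave no call either, and 0 of the 7 had an unadjusted P under 0.05 in edgeR. Of the base chaperones, Psmd10 (gankyrin) stood at 29.5 and 26.1 CPM in vehicle, 26.5 and 30.4 in CCM, 28.4 and 27.6 in LA, and 40.6 and 27.6 in TCM, with a log2 FC of 0.27 (−0.10 to 0.63). Psmd9 stood at 29.3 and 29.1 CPM in vehicle, 31.9 and 35.2 in CCM, 32.1 and 31.3 in LA, and 36.7 and 28.1 in TCM, with a log2 FC of −0.05 (−0.34 to 0.25). The groups overlapped in both. Psmg1, of the PAC1-PAC2 pair that holds the α ring together during assembly, stood at 26.8 and 26.0 CPM in vehicle, 27.1 and 28.1 in CCM, 24.3 and 27.6 in LA, and 41.4 and 27.3 in TCM, with a log2 FC of 0.32 (−0.06 to 0.69). Psmg3, which acts with Psmg4 in the same step, stood at 7.92 and 7.58 CPM in vehicle, 9.52 and 9.26 in CCM, 7.09 and 6.55 in LA, and 10.9 and 6.65 in TCM, with a log2 FC of −0.09 (−0.57 to 0.38). Here too the TCM libraries overlapped with CCM, and the interval of Psmg3 reached lowest of all members.

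**Figure D4:**
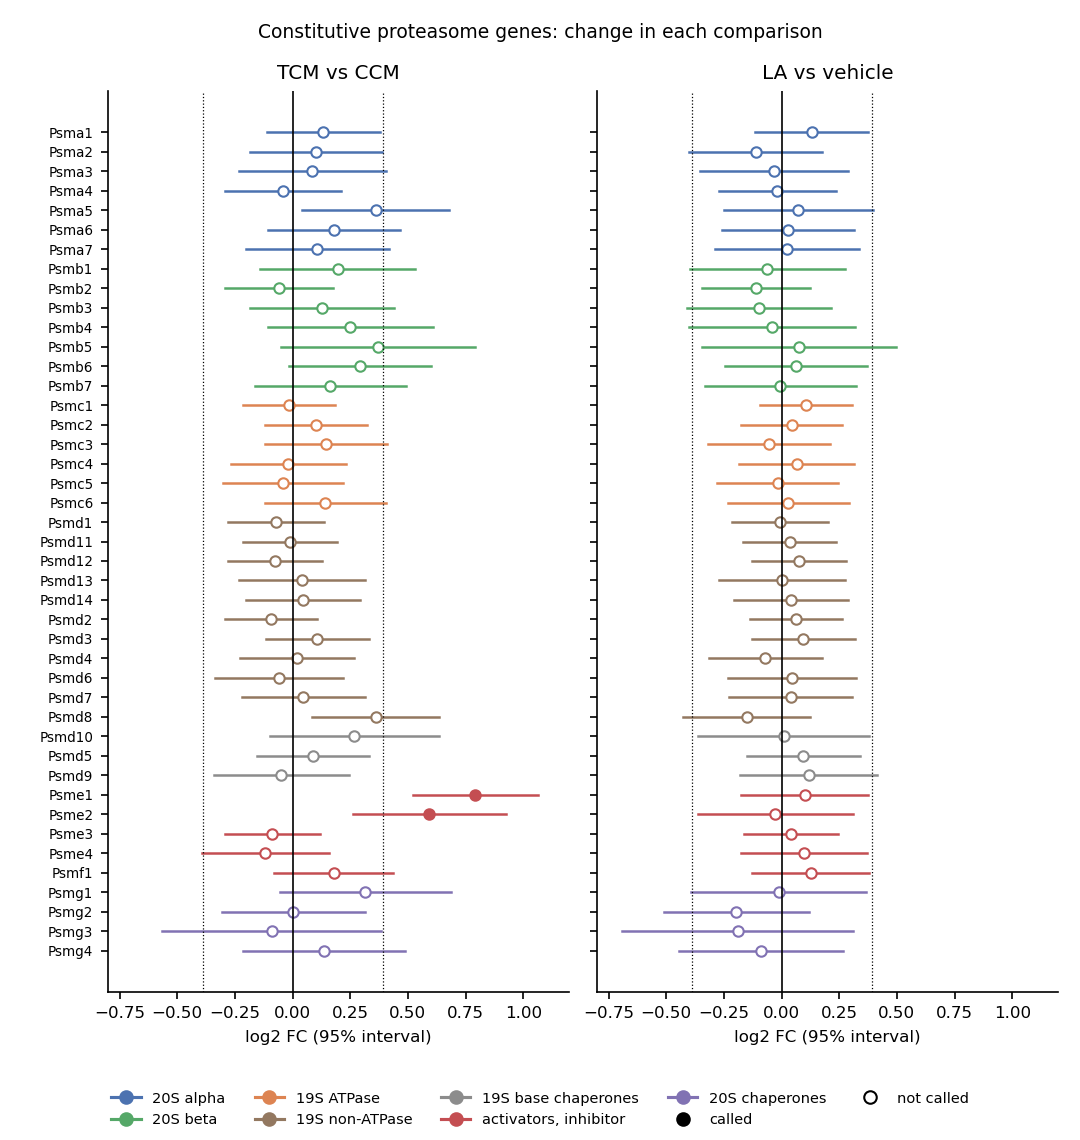
Log2 FC of each of the 43 members (vertical axis, coloured by role) with its 95% interval (horizontal axis) in TCM versus CCM (left) and LA versus vehicle (right). Filled points were called and dotted lines mark 0.39 on either side of 0. Psme1 and Psme2 are the filled points, both on the left.

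Summed over all 43 members, the level was 5610 ± 863 CPM (SD, n = 2) in TCM and 5233 ± 255 in CCM, and the groups overlapped (exact permutation test, two-sided, P = 1; the smallest P that 2 against 2 allows is 0.333). The sums of the α, β, ATPase and non-ATPase subunits and of both kinds of chaperone overlapped too. The 5 activators and inhibitor summed to 506.3 ± 16 CPM in TCM and 439 ± 2.12 in CCM without overlap (exact permutation P = 0.333). Without scaling factors the median log2 FC of all genes in TCM versus CCM was −0.14 in place of 0.00. The log2 ratio of the summed members was then −0.04 in place of 0.10. The sums of the α, ATPase and non-ATPase subunits and of both kinds of chaperone, between 0.02 and 0.13 with the factors, were between −0.12 and −0.01 without them, so their direction depended on the scaling. The β sum (0.06) and the sum of the activators and inhibitor (0.07) stayed above 0. The members' median log2 FC was 0.10 beside an all-gene median of 0.00 with TMM factors, and −0.04 beside −0.14 without. Calls over all genes were 1072 higher and 1242 lower with them, and 651 higher and 2039 lower without.

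LA at 15 mmol/L gave no call in the members. In LA versus vehicle 0 of 43 were called by edgeR, 0 had an unadjusted P under 0.05 and 0 were called by DESeq2, where 2.55% of all tested genes were called. The log2 FC ran from −0.20 (Psmg2, which pairs with Psmg1) to 0.13 (Psma1, of the α ring), with a median of 0.03. For 31 of the 43 members the 95% interval lay within 0.39 of 0 on either side, and for all 43 within 1. Psme1 had a log2 FC of 0.10 (−0.17 to 0.37) and Psme2 one of −0.03 (−0.36 to 0.31). Psmb5 stood at 0.08 (−0.35 to 0.50), Psmb6 at 0.06 (−0.25 to 0.37) and Psmb7 at −0.01 (−0.33 to 0.32) on the same scale. These intervals leave room for changes of moderate size, and a missed threshold does not show that LA and vehicle were alike.

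All 4 of the 20S chaperones had a negative log2 FC in LA, with a median of −0.14 and intervals that reached from −0.69 to 0.37. Their summed CPM was 73.7 and 72.7 in LA and 81.4 and 77.1 in vehicle, without overlap (exact permutation P = 0.333). The base chaperones were on the other side, at 116.4 and 118.4 CPM in LA and 115.2 and 107.3 in vehicle, also without overlap (exact permutation P = 0.333). The summed non-ATPase subunits (1886 and 1891 CPM in LA, 1877 and 1834 in vehicle) and the summed activators and inhibitor (455.7 and 477.6 in LA, 445.6 and 447.3 in vehicle) were likewise above vehicle by small amounts. None of these passed a threshold, which 2 against 2 libraries cannot do in that test. The controls, CCM and vehicle, were also without overlap in the summed 20S chaperones and in the summed activators and inhibitor. For the non-ATPase subunits in LA versus vehicle the exact permutation P was 0.333 with scaling factors and 0.667 without.

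The difference between the TCM effect and the LA effect, the interaction of the 2 comparisons, was tested directly. It was called for 1 of 43 members, Psme1, where 10.4% of all tested genes were called. For Psme1 it was 0.69 ± 0.17 (SE) on the log2 scale, with a 95% interval of 0.31 to 1.08 and an adjusted P of 0.028 in edgeR. This call was lost when any 1 of the 6 vehicle, CCM or LA libraries was left out (adjusted P = 0.076 to 0.125) and without scaling factors (adjusted P = 0.0669), with a log2 difference of 0.55 or more in each. Psme2 had a difference of 0.62 (0.15 to 1.09, adjusted P = 0.0984) and Psmd8 one of 0.51 (0.12 to 0.90, adjusted P = 0.0962) in the same edgeR test. Both passed it with the trend over transcript length taken out, which called 3 of 43 members, where 16.4% of all tested genes were called.

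The controls were compared with each other because CCM and vehicle differ in whether FRCs had conditioned the medium. In CCM versus vehicle 0 of 43 members were called by edgeR, 0 had an unadjusted P under 0.05 and 0 were called by DESeq2, where 1.30% of all tested genes were called. The log2 FC ran from −0.17 (Psmd8) to 0.28 (Psmg3), with a median of 0.01. Psme1 stood at 0.02 (−0.25 to 0.30) and Psme2 at −0.08 (−0.42 to 0.26). TCM set against vehicle, which shares its TCM libraries with the comparison above, called 3 of 43 members, where 17.5% of all tested genes were called. They were Psme1 (log2 FC 0.82, adjusted P = 0.00108 in edgeR), Psme2 (0.51, adjusted P = 0.0361) and Psma5 (0.46, adjusted P = 0.0467). Without TCM replicate 1 the log2 FC of Psma5 was 0.17 (adjusted P = 0.227) and that of Psme2 0.26 (adjusted P = 0.152). Psme2 also lost its call without either vehicle or either LA library (adjusted P of 0.0545 to 0.252), and Psma5 without any 1 library other than TCM replicate 2 (adjusted P of 0.0687 to 0.227).

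Other genes of the pathway, none of them members, were grouped by function. The inducible β subunits that replace the constitutive catalytic ones in immunoproteasomes were low in all libraries, except Psmb10. Psmb8 stood at 4.04 and 3.15 CPM in CCM and 10.2 and 8.29 in TCM (log2 FC 1.35, adjusted P = 0.00115 in edgeR), and Psmb9 at 1.77 and 1.24 in CCM and 5.05 and 3.38 in TCM (log2 FC 1.47, adjusted P = 0.00747). Both rose, with TCM above all 6 other libraries, where 8.83% of all tested genes were called higher. Psmb8 was lowest in vehicle, at 2.12 CPM in replicate 1 and 2.13 in replicate 2, and stood at 3.43 and 3.52 CPM in LA. Its log2 FC was 0.71 in LA versus vehicle (adjusted P = 0.239 in edgeR) and 0.77 in CCM versus vehicle (adjusted P = 0.221), and neither was called. Psmb10 stood at 24.3 and 24.1 CPM in CCM and 39.5 and 26.1 in TCM (log2 FC 0.44, adjusted P = 0.0884). Both TCM libraries were above CCM here as well, by less in replicate 2. Tested directly, the interaction was called for 0 of these 3 by edgeR (adjusted P of 0.107 to 0.292), and 1 (Psmb9) had an unadjusted P under 0.05.

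Of the 5 peptide-loading and interferon-response genes reported, 3 were called higher in TCM versus CCM and 0 lower, where 8.83% and 10.2% of all tested genes were called. Tapbp, which holds class I molecules at the peptide transporter, passed the adjusted P under the fold threshold (log2 FC 0.36, adjusted P = 0.0135 in edgeR). Tap1 and Tap2, which carry peptides into the endoplasmic reticulum, rose by 0.82 and 0.73 on the log2 scale. B2m, the light chain of MHC class I, rose by 0.64, whereas the transcription factor Irf1 stood at 0.06. B2m was close in the TCM libraries, at 699.2 and 684.8 CPM, against 435.1 to 466.6 CPM in the other 6. Nlrc5, the class I transactivator, did not reach the count minimum. In LA versus vehicle 0 of the 5 were called by edgeR, and 1 (Tapbp) had an unadjusted P under 0.05. The difference between the effects was called higher for 3 of the 5, Tap2, Tapbp and B2m, where 4.45% of all tested genes were called higher. It was also called higher for Emc9, which shares bases with Psme1 (log2 difference 1.235, adjusted P = 0.0349 in edgeR). Against vehicle, Tapbp had a log2 FC of −0.29 in CCM and −0.27 in LA, neither of them called, and one of 0.07 in TCM (adjusted P = 0.615 in edgeR).

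**Figure D5:**
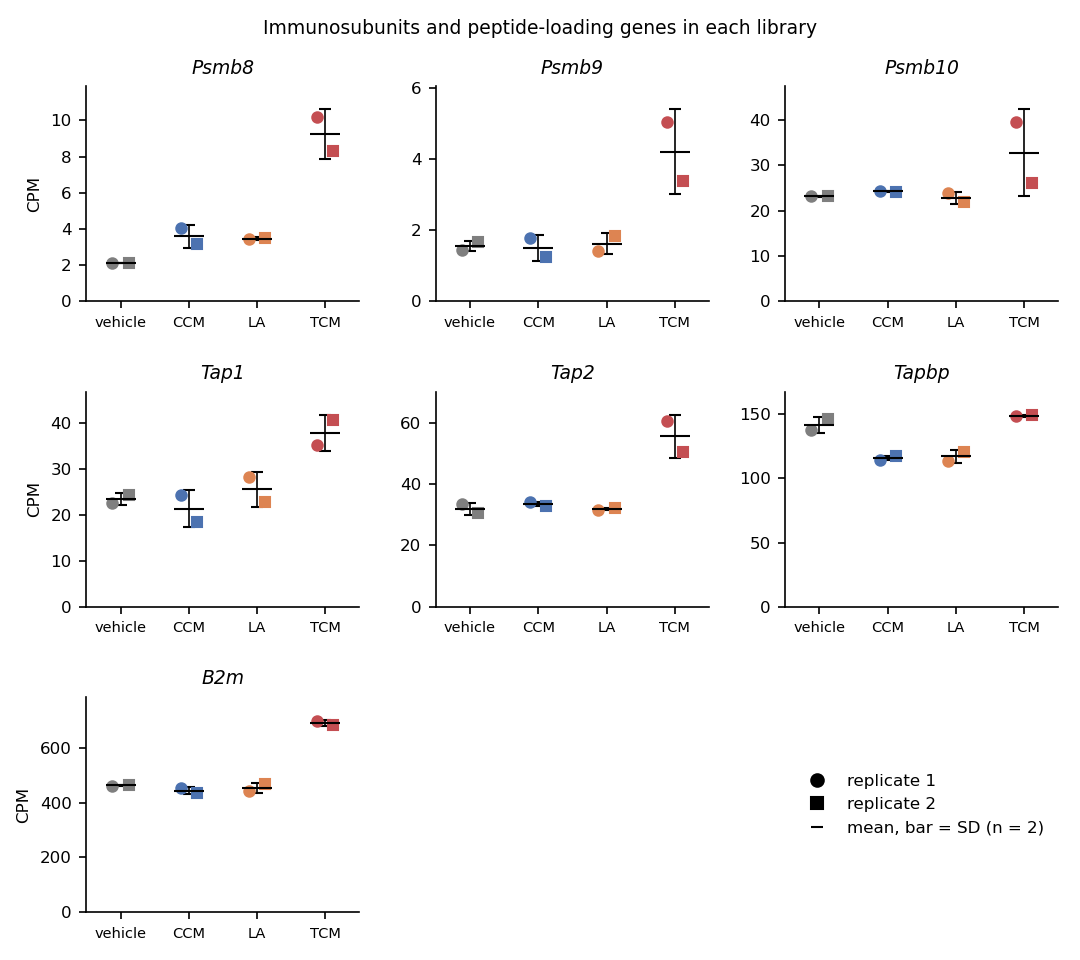
CPM (vertical axis, from 0) of the 3 inducible β subunits and of 4 genes of peptide loading by condition (horizontal axis), with a circle for replicate 1, a square for replicate 2, and the mean with its SD over the 2 libraries. In TCM both libraries are above all 6 others for each of the genes drawn, a pattern that 16.4% of all tested genes had. Irf1, grouped with the peptide-loading genes, is not drawn. Its TCM replicate 2 (28.89 CPM) was under CCM replicate 2 (30.45 CPM).

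Proteasome partners and the genes of the ubiquitin supply were counted in the same way, against 8.83% of all tested genes called higher and 10.2% called lower. Of 13 partners reported 0 were called higher and 1 lower in TCM versus CCM, with a median log2 FC of 0.08, and Paaf1 was not analysed here. The gene called lower was Uchl5, a deubiquitinase of the 19S particle, at 17.9 and 19.7 CPM in CCM and 11.4 and 12 in TCM (log2 FC −0.68, adjusted P = 0.00972 in edgeR). Of 6 genes for ubiquitin and its activating enzymes 1, the activating enzyme Uba6, was called higher (0.42, adjusted P = 0.0301). Of 6 genes around Nrf1 none was called by edgeR in TCM versus CCM or in LA versus vehicle, with 0 and 1 (Nfe2l1) at an unadjusted P under 0.05. Nfe2l1 itself stood at 0.15 (−0.06 to 0.36) in the first and −0.21 (−0.41 to −0.00) in the second. The interaction was called lower for Uchl5 (log2 difference −0.769, adjusted P = 0.0451 in edgeR) and was called for 0 of the other genes of these lists. Of all tested genes 10.4% were called there in either direction.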

How the data were processed

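The 8 libraries, 2 per condition, were assigned to vehicle, CCM, LA and TCM from their labels. According to the submitters' processing notes and the study's methods, the authors aligned the reads to GRCm38 with STAR 2.7.0a and counted them per gene with featureCounts (Subread 2.0.1), and deposited whole-number counts without normalization. DESeq2 1.32.0 was used for their own tests. Whether counting used strand is not given in the sources used here. Of 55367 genes, 12137 also stand in a second deposited table, where 100% of values matched the first exactly. No column was left unused (0).

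Genes that reached 10 counts in 3 or more libraries were fitted in R 4.3.3 with edgeR 4.0.16 (TMM factors of 0.938 to 1.04, robust glmQLFit and glmQLFTest, a mean per condition, all 8 libraries), with P values adjusted over all 12137 genes by the Benjamini-Hochberg method. A 95% interval uses the moderated degrees of freedom, and the SE is the log2 FC divided by the square root of F. Both rest on a spread per gene estimated over all 8 libraries, not on the TCM pair alone. CPM uses TMM-scaled library sizes. The fits were tested on simulated data. Alternatives were DESeq2 1.42.0, other scaling, filters and fold thresholds, the libraries compared alone, the replicate number as a block, and leaving out each library. Floors of 3 counts cover counting error only.

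Values per library are given for members that were called, for the highest and lowest log2 FC of each role in TCM versus CCM, for Psme1 to Psme4 and Psmf1, and for Psmb5 to Psmb7. Other members are given by counts and ranges. The members, lists, motifs and tests were chosen with earlier results of these data known. Positions and transcript lengths are from GENCODE M21 (GRCm38), and promoters from RefSeq (GRCm38.p6). A few other genes of the pathway are not reported here.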

Additional observations from a re-analysis of the deposited data

Results flagged for a closer look

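For Psme1 the TCM effect (over CCM) exceeded the LA effect (over vehicle) by 0.692 on the log2 scale, and the difference itself was called by the test of the interaction (adjusted P = 0.028 in edgeR). This call was lost without scaling factors (0.547, adjusted P = 0.0669 in edgeR) and when any vehicle, CCM or LA library was left out. Psme1 was 1.73-fold higher in TCM than in CCM and 1.07-fold higher in LA than in vehicle. Both TCM libraries were above both CCM libraries, a pattern that 27.8% of all tested genes had. No other member met the same rule. The part of the difference between the TCM libraries in this value was not tested beyond the following refits. The value was 0.492 without TCM replicate 1 and 0.865 without TCM replicate 2. With each library's trend over transcript length taken out, a setting chosen after seeing the data, it was 0.569.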

How the results depend on the processing

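Counts of members called lower stayed at 0 under each alternative that was run. The crossed block was run for TCM versus CCM alone, and the libraries compared alone gave no interaction. The counts called higher were 2 in TCM versus CCM, 1 in the interaction and 3 in TCM versus vehicle, of 43 members. Of all tested genes 8.83%, 4.45% and 8.58% were called higher there. Without scaling factors the counts were 1, 0 and 1, against 5.36%, 2.69% and 5.79% of all tested genes. With only the libraries compared both TCM comparisons had 1, against 6.39% and 6.48%. At a fold threshold of 0.68 both TCM comparisons had 1, against 4.45% and 4.34%. At a fold threshold of 1 all were 0. The interaction had 3 calls with no filter beyond 1 count, where 3.76% of all genes fitted were called higher. With the trend over transcript length taken out it had 3, against 8.22% of all tested genes. TCM versus vehicle had 1 in that setting, against 9.24%. Leaving out 1 library gave 1 to 11, 0 to 13 and 1 to 11, the highest without TCM replicate 2. In that fit, which rests on 1 TCM library, a larger share of members than of all tested genes was called higher in each of these comparisons. In the main fit the share of members was the smaller one in each. The causes were not tested, except that a higher threshold lowers a count by construction. DESeq2 and its size factors gave the same counts. No value changed sign among those called. With only 1 library left in a condition, that library is assumed to vary like the other conditions.

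Same-numbered libraries did not all deviate together over 12137 genes. In the 3 pairs of conditions without CCM r was 0.124 to 0.386, and in the 3 pairs with CCM it was −0.278 to −0.0522. The labels do not say what a number marks, and the pairing was not used in the reported values. With the replicate block TCM versus CCM called 1093 genes higher and 1274 lower, against 1072 and 1242, and the member counts were 2, 0, 1 and 3 in TCM versus CCM, LA versus vehicle, the interaction and TCM versus vehicle, as without it. With the CCM numbers crossed, a setting chosen after seeing the data, 1266 genes were called higher and 1409 lower, and 2 members.

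Calls over all genes numbered 2314 (TCM versus CCM), 310 (LA versus vehicle), 1268 (interaction), 158 (CCM versus vehicle) and 2121 (TCM versus vehicle). At a fold threshold of 1 they were, in this order, 760, 86, 634, 19 and 668, and at 0.68 they were 1331, 176, 84 and 1199, the interaction left out. Without the filter, which fitted 23234 genes, LA versus vehicle had 656 and CCM versus vehicle 584, and with the length trend taken out these had 577 and 464 and the interaction 1987. CCM versus vehicle had 237 calls by DESeq2 and 679 with only its own libraries. Leaving out 1 library gave, in the first order, 1195 to 2864, 57 to 617, 629 to 2540, 0 to 497 and 1128 to 2904. With 2 libraries per condition the median SE of a member was 0.12 on the log2 scale in TCM versus CCM, which limits what could be called.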
